A study of Mus musculus with 6 samples.

Results

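The regions described here are the stretches of accessible chromatin on mouse chromosome 13 in an immortalized osteoblast line with and without Fam20c. Overlapping peaks of the 6 libraries, by 1 bp or more, were joined to regions, of which the genome held 89410 and chromosome 13 held 3490. A region called in all libraries of both groups is named a shared region, and one called in each f/f library an f/f region. The chromosome was selected on its measured values: among the 20 chromosomes of the lists with X it had the highest share of regions that were found in every f/f library and in no KO library, with 12.9%, followed by chromosomes 16 with 12.3% and 4 with 12.2%. The comparison of f/f with KO on it is therefore a description, and no test was made of it.

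OB Fam20c f/f cells are a mouse osteoblast line in which both copies of Fam20c, the kinase that phosphorylates secreted matrix proteins, carry loxP sites and are intact. OB Fam20c KO cells came from that line by Cre recombinase, so that both groups share the floxed background and differ in the deletion and in the exposure to Cre. There were 3 libraries per group, each from 50000 cells with Tn5 transposition for 30 min at 37 °C. Whether the KO line grew from 1 clone, and whether replicates were separate cultures, is not given in the sources used here, so the spread between libraries may be technical.

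ATAC-seq cuts DNA where no nucleosome shields it, so that active promoters and enhancers appear as peaks over the reads of their surroundings. Mouse chromosome 13 carries a large cluster of replication-dependent histone genes, which are transcribed in dividing cells, and tandem families of prolactin-like, placental cathepsin, serpin B and zinc finger genes. It also carries genes of skeletal interest: Msx2 and Gli3, transcription factors of skull and limb patterning, the leucine-rich proteoglycans osteoglycin and osteomodulin, the ligands Bmp6 and Inhba, and calpastatin (Cast), the inhibitor of calpains to which the study turned.

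The list of KO replicate 3 was shorter than the others, with 32958 peaks against 62781 to 74797, and its values are given apart wherever it decides a result. A peak missing from a list did not pass the q-value of 0.05 at the depth and background of that library, and the lists do not give the depth. As a check of the label, 10 of 12 osteoblast markers had a peak in every library, and Bglap and Ibsp had none in any. Markers of other cell types also had peaks: the 3 chondrocyte and 2 endothelial markers in every library, the 2 adipocyte markers in all but KO replicate 3, which had 1, and the 2 muscle markers in all but KO replicate 3, which had 0. Of 2 blood markers, 1 or 2 had a peak in the f/f libraries and 0 or 1 in the KO libraries, and of 2 epithelial markers 1 in the f/f libraries and 0 or 1 in the KO libraries. Trophoblast genes, which chromosome 13 holds in number, were nearly without peaks, with a region at 2 of 26 prolactin-family genes and at 0 of 8 placental cathepsin genes. The part of other cells in the results below was not tested. Fam20c itself, on chromosome 5, had 2, 1 and 2 regions with a peak in the f/f libraries and 2, 1 and 1 in the KO libraries, and the presence of peaks does not show the deletion.

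The promoters of 6 genes are shown as examples of both directions: Btn2a2, Rasgrf2 and Sv2c had a promoter peak in every f/f library and in no KO library, and the promoter peaks of Irx2, Id4 and Gli3 stood higher in every KO library than in any f/f library. Each sequence is the 250 bases upstream of a RefSeq start site, 5′ to 3′ on the strand of the gene, in build GRCm38.p6. They lie at chr13:23488858-23489107 on the minus strand (Btn2a2), chr13:92131829-92132078 on the minus strand (Rasgrf2), chr13:96132578-96132827 on the minus strand (Sv2c), chr13:72628570-72628819 on the plus strand (Irx2), chr13:48260866-48261115 on the plus strand (Id4) and chr13:15463473-15463722 on the plus strand (Gli3). Capitals mark matches, on either strand, to the CCAAT box (CCAAT), the GC box (GGGCGG), the RUNX core (ACCACA) and the TEAD core (CATTCC). The AP-1 motif (TGANTCA) was searched in the same way and occurs in none of the 6.
Btn2a2: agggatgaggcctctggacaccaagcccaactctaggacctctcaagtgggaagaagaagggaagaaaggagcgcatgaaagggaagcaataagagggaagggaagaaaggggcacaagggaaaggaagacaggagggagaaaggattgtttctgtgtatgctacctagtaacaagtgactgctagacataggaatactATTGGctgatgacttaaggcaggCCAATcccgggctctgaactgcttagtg
Rasgrf2: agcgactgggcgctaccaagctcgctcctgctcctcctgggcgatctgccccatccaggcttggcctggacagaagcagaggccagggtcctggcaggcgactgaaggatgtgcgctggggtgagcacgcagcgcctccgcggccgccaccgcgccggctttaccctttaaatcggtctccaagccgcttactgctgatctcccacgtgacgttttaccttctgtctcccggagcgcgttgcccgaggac
Sv2c: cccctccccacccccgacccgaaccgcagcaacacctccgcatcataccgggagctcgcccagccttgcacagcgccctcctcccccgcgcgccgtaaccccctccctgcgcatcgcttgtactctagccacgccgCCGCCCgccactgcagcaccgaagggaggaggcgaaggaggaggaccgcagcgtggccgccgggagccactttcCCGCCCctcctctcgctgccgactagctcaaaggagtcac
Irx2: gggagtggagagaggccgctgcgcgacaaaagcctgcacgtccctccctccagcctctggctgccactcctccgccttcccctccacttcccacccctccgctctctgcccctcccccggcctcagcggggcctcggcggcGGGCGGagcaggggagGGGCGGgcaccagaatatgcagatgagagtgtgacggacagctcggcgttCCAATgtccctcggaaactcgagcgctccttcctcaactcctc
Id4: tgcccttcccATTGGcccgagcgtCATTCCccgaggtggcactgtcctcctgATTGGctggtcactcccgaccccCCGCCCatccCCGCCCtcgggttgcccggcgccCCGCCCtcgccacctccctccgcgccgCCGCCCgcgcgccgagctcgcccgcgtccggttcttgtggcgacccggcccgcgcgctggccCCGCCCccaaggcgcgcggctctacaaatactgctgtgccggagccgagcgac
Gli3: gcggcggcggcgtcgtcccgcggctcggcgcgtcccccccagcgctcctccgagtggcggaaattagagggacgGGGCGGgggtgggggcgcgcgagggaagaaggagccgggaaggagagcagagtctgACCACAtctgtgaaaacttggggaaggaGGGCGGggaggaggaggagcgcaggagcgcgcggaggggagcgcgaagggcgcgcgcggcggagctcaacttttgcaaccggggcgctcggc
The Btn2a2 promoter holds 2 CCAAT boxes and 2 CpG dinucleotides, whereas those of Rasgrf2, Sv2c, Irx2, Id4 and Gli3 hold 22, 26, 19, 35 and 34 CpG. GC boxes number 2 in Sv2c, 2 in Irx2, 5 in Id4 and 2 in Gli3, with none in the other two. Of all 32851 RefSeq promoter stretches of this length, 33.8% hold a CCAAT box, 32.7% a GC box, 14% a RUNX core, 12.6% a TEAD core and 6.75% an AP-1 motif. On chromosome 13, the 525 promoters covered by a shared region had a median of 18.0 CpG, the 13 covered by a region lost in KO a median of 11, and the 893 with no peak a median of 3.

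Along chromosome 13, KO libraries had fewer accessible regions than f/f libraries in relation to the rest of the genome. The 3 f/f libraries had a peak in 2627, 2592 and 3106 of the regions, and the KO libraries in 2163, 2251 and 1000. Because the lists differ in length, each count was scaled to 10000 regions that the same library had on the other chromosomes, leaving out chromosomes 4, 15 and 16, which had been set apart with earlier results of these data known. On that scale KO had 89.0%, 111% and 84.2% of the f/f regions on these 3 chromosomes. The scaled counts were 540, 539 and 535 in f/f and 436, 445 and 394 in KO, so that the groups did not overlap. Their means were 538.0 ± 2.65 and 425.0 ± 27.2 (SD, n = 3 each), the KO mean being 79.0% of the f/f mean, and 81.9% without KO replicate 3. Of all peaks in a list, 4.25%, 4.21% and 4.20% lay on chromosome 13 in f/f and 3.49%, 3.55% and 3.15% in KO. Fewer copies of the chromosome per cell and less accessible chromatin per copy cannot be told apart in these lists.

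Chromosome 13 held 2296 f/f regions, and 296 of them had no peak in any KO library, which makes them f/f-only. This share of 12.9% stands beside 6.25% over all chromosomes and 5.28% on the rest of the genome as defined above; it is the measure by which the chromosome was chosen, so nothing is read from the difference. Without KO replicate 3 the number was 298 (13%, against 5.32% on the rest). When each list was shortened to its 32958 highest peaks by −log10 q, 143 of 1216 f/f regions were f/f-only (11.8%, against 3.24%). The reverse, a KO-only region called in each KO library but never in f/f, occurred at 1 of 3490, whereas 0.179% of all merged regions were KO-only. KO replicate 3 decided this number, since KO replicates 1 and 2 shared 64 regions that f/f lacked; these were 3.23% of all regions that both had, against 4.58% on the rest of the genome. The single KO-only region, 351 bp inside Zfp346 (chr13:55107715-55108065), a gene for a zinc finger protein that binds double-stranded RNA, had −log10 q of 34.4, 34.0 and 12.9 in KO replicates 1, 2 and 3.

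Whether a region kept its peak in KO went with how high it stood in the f/f lists. The standing of a peak is its percentile by −log10 q within its own list, 100 being the highest. Of the 515 chromosome 13 regions with a mean f/f standing from 80 to 100, KO replicates 1 and 2 kept 100% and KO replicate 3 kept 99.2%. From 40 to 60, the 3 KO libraries kept 80.9%, 82.9% and 18.6% of 560 regions, against 94.4%, 95.0% and 37.0% on the rest of the genome. From 0 to 20, they kept 36.6%, 40.5% and 4.58% of 153 regions, against 59.9%, 63.5% and 7.45%. In every bin below 80 the 3 KO libraries kept a lower share on chromosome 13 than elsewhere. Regions that no KO library kept are the f/f-only ones by which the chromosome was chosen, so nothing is read from this difference.

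**Figure D1:**
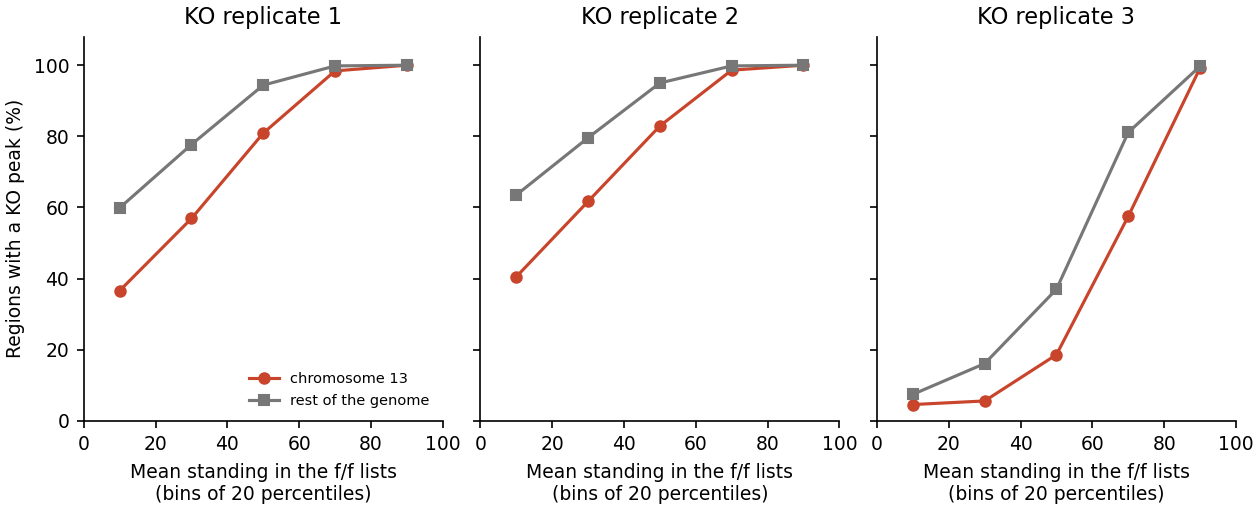
Share of f/f regions at which each KO library also had a peak (vertical axis, %), by their mean standing in the f/f lists in bins of 20 percentiles (horizontal axis, points at bin centres), for chromosome 13 (red circles) and the rest of the genome without chromosomes 4, 15 and 16 (grey squares). The red points lie below the grey ones in the bins up to 80 and meet them at the top, where KO replicates 1 and 2 kept 100%.

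The f/f-only regions were of low to middle standing. Their median f/f standing was 28.4, compared with 35.8 for the 222 f/f regions called in 1 KO library, 16.1 for the 255 called in 2 f/f and 0 KO libraries, and 80.8 for the 974 shared regions. They were also narrower, with a median width of 558 bp against 1140 bp for shared regions. The rest of the genome had the same contrast, with 520 bp for f/f-only and 1110 bp for shared regions. Gene spans held 178 of the 296 (60.1%), compared with 738 of the 974 (75.8%).

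By the rule for naming regions, the f/f-only region that stood highest in the f/f lists lay inside Lhfpl2 (chr13:94132171-94133050), a gene for a tetraspan membrane protein. Its −log10 q was 41.3, 41.2 and 64.4 in f/f replicates 1, 2 and 3, with a fold over the local background of 10.6, 7.99 and 9.83. It stood at 65.4, 65.0 and 67.5 in these lists, above most peaks of each, and no KO list held a peak there. The next was the promoter of Rasgrf2, an exchange factor for Ras (chr13:92131102-92132244), with −log10 q of 27.3, 46.9 and 56.6. A region inside Fancc, a gene of the Fanconi anaemia DNA repair complex (chr13:63421032-63421749), had 37.2, 28.5 and 60.9. The others were in the long non-coding RNA gene Gm40929 and at the promoter of Btn2a2, a butyrophilin, where −log10 q was 30.3, 24.0 and 55.3.

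Losses were not even over kinds of regions. Of the 439 f/f regions that overlapped a promoter, defined as 250 bp before to 50 bp after a RefSeq start site, 11 (2.51%) were f/f-only, against 0.822% on the rest of the genome. Of the 1857 other f/f regions, 285 (15.3%) were f/f-only, against 6.40%. Apart from Rasgrf2, Btn2a2 and Sv2c, the 11 promoters were those of Slc9a3, a sodium-proton exchanger, of Pde8b, a cAMP phosphodiesterase, and of 6 long non-coding RNA places, among them Gm35672 inside Gmds and Gm36529 inside Adamts16. At the Slc9a3 promoter (chr13:74121129-74121756) the f/f values of −log10 q were 6.89, 5.62 and 18.7, and at the Pde8b promoter (chr13:95222702-95223370) 3.32, 6.22 and 12.4. Both stood in the lower part of the f/f lists.

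In steps of 2 Mb, the lower number of KO regions ran over nearly the whole chromosome. Of 61 steps, 54 held 10 or more f/f regions, and each of these 54 had at least 1 f/f-only region. The f/f-only share ranged from 1.56% to 38.1% with a median of 13.1%, and it lay above the genome's 6.25% in 46 steps (85.2%, against 41.9% of all steps of the genome). All 3 KO libraries had fewer scaled regions than all 3 f/f libraries in 46 steps (85.2%, against 20.6%). The KO mean as a percentage of the f/f mean had a median of 77.8% over the steps and was under 100% in 52 of the 54.

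**Figure D2:**
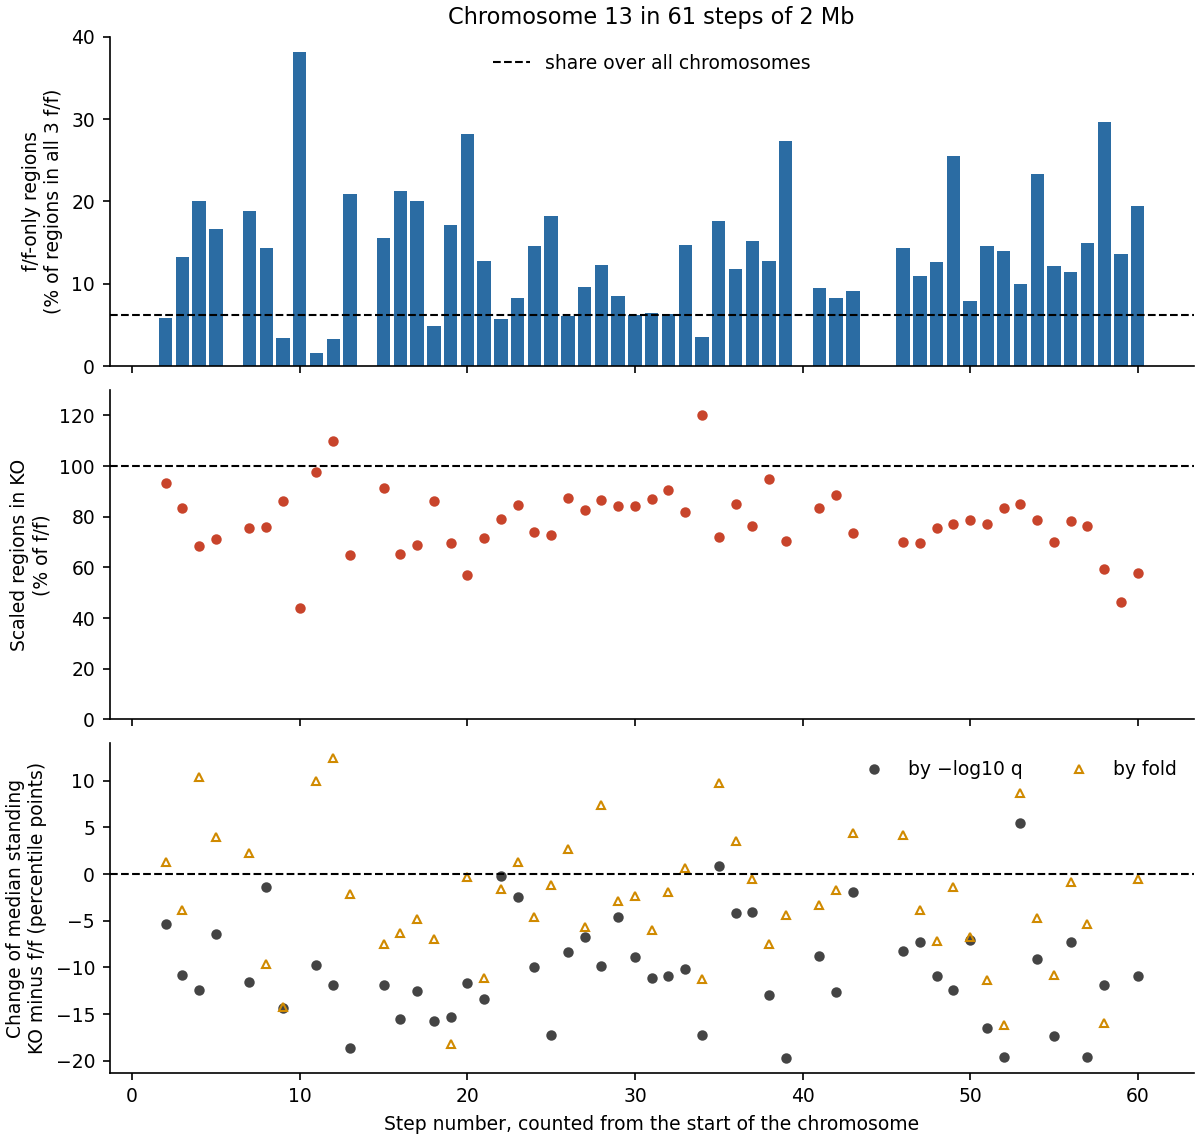
Chromosome 13 in steps of 2 Mb, numbered from its start, for steps with 10 or more f/f regions: f/f-only share (top, %), number of regions scaled to the rest of the genome, KO mean as % of f/f mean (middle), and KO minus f/f change of the median standing of shared regions (bottom, percentile points; circles by −log10 q, triangles by fold; steps with 5 or more such regions). Bars range from 1.56% to 38.1%, the middle points lie under 100% in 52 of 54 steps, and the circles lie below 0 in 50 of 52.

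The step with the highest share, from 18 to 20 Mb, held Sfrp4, a secreted Wnt antagonist, Amph and Vps41. Its libraries had 23, 24 and 28 regions in f/f and 14, 12 and 3 in KO, and 8 of 21 regions were f/f-only (38.1%). The step from 114 to 116 Mb, with Fst, Itga2, Itga1 and Arl15, followed with 8 of 27 (29.6%). From 38 to 40 Mb, with Bmp6 and the desmosome gene Dsp, 11 of 39 were f/f-only (28.2%), the largest number of these 4 steps. From 76 to 78 Mb, 3 of 11 were (27.3%).

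The lowest shares fell in steps rich in gene clusters, with 1 exception. From 20 to 22 Mb, with the zinc finger genes Zkscan3 and Zkscan8 and the first histone genes, 1 of 64 regions was f/f-only (1.56%), and from 22 to 24 Mb, with most of the histone cluster, 2 of 60 (3.33%), 1 of them the Btn2a2 promoter. From 66 to 68 Mb, in a cluster of zinc finger genes, it was 1 of 28 (3.57%), and the KO mean there was 120% of the scaled f/f mean. KO replicate 3, with its short list, decided this value. The unscaled numbers of regions were 28, 30 and 30 in f/f and 28, 28 and 24 in KO replicates 1, 2 and 3. Promoters made up 22.9%, 42.1% and 57.6% of the regions of these 3 steps, against 13.6% over the chromosome. The exception was the step from 16 to 18 Mb around Inhba, with 1 of 29 (3.45%) and a promoter share of 10.9%.

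The median standing of the 974 shared regions of chromosome 13 was lower in KO by −log10 q and, by fewer points, by fold. Standing here is the percentile among the 29849 shared regions of the genome. By −log10 q, which grows with the number of reads in a peak, the median of chromosome 13 was 56.4, 57.5 and 57.4 in f/f and 45.9, 46.5 and 48.8 in KO. The means were 57.11 ± 0.589 and 47.05 ± 1.55, a change of −10.1 percentile points, compared with +1.05 on the rest of the genome. By fold, which MACS2 takes over the local background, the medians were 59.4, 61.6 and 59.1 in f/f and 56.6, 58.1 and 56.7 in KO, a change of −2.88 points against 0.300. The library medians of the groups did not overlap by either measure. By fold only chromosome 16 changed by a lower value, −4.05. Over the same 974 regions, the change without KO replicate 3 was −2.65 by fold and −10.9 by −log10 q. When the regions shared by the other 5 libraries were ranked instead, 1778 on chromosome 13, it was −6.94 by fold and −10.0 by −log10 q. Region by region, the mean KO standing by fold lay below the mean f/f standing in 504 of the 974 (51.7%, against 47.1% on the rest). By −log10 q it did so in 787 (80.8%, against 49.6%). The median of the changes per region was −0.431 points by fold and −9.60 by −log10 q.

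In 523 of the 974 regions (53.7%) the 3 KO standings by −log10 q lay all below the 3 f/f standings, compared with 20.9% of the shared regions of the genome. The reverse held in 67 (6.88%, against 21.1%). By fold, 152 lay below (15.6%, against 13.9%) and 130 above (13.3%, against 15.5%), both near the background. Without KO replicate 3, 546 of 1778 lay below by fold (30.7%, against 20.2% genome-wide) and 1044 by −log10 q (58.7%, against 26.3%). At equal standing by −log10 q, chromosome 13 peaks stood 2.13, 2.17 and 2.16 percentile points higher by fold than other peaks of their own f/f list, and 3.78, 3.63 and 5.26 points higher in the KO lists, with means of 2.153 ± 0.0208 and 4.223 ± 0.901 (SD, n = 3).

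**Figure D3:**
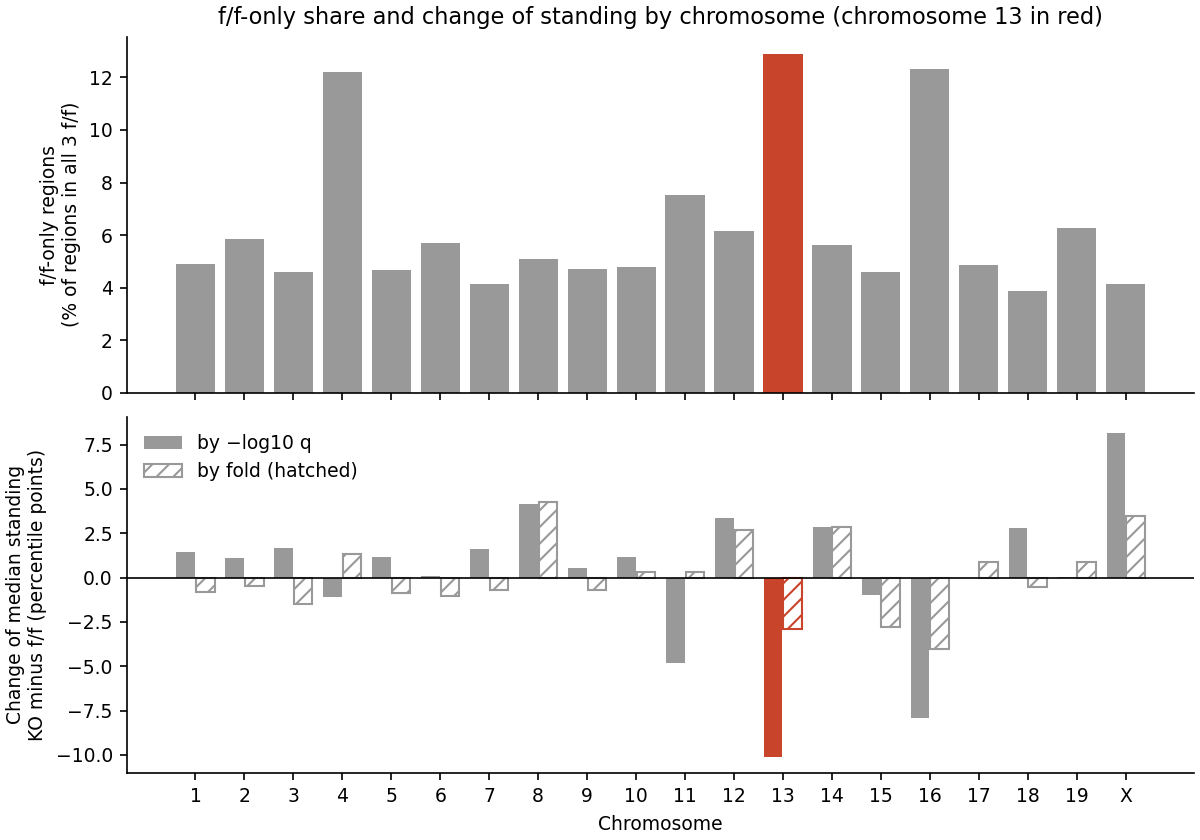
f/f-only share of f/f regions (top, %) and KO minus f/f change of the median standing (bottom, percentile points; solid by −log10 q, hatched by fold) for chromosomes 1 to 19 and X, with chromosome 13 in red. Chromosome 13 had the highest bar at 12.9% and a change of −10.1 by −log10 q but −2.88 by fold.

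The fall by −log10 q was found in both parts of the chromosome and in both kinds of region. It was −10.8 points in the first 60 Mb (543 regions) and −9.48 beyond (431 regions). Promoter regions (380) stood at 75.1, 76.6 and 77.2 in f/f and at 64.7, 65.6 and 65.5 in KO, a change of −11.0 points, whereas other regions (594) stood at 45.9, 46.3 and 46.1 and at 33.9, 34.0 and 34.3, a change of −12.0. Without KO replicate 3 the changes were −11.1 and −12.2 over the same regions, and −7.44 and −10.4 over those shared by the other 5 libraries. By fold, the promoters stood at 70.8, 74.3 and 68.4 in f/f and at 72.0, 71.8 and 74.0 in KO, the KO values lying within the range of f/f, and their change of +1.41 was below the SD of 2.99 between f/f libraries. Other regions stood by fold at 52.4, 55.5 and 54.1 and at 49.5, 51.6 and 41.6, a change of −6.42 that became −3.43 without KO replicate 3. On the rest of the genome the changes by fold were +6.71 for promoters and −2.75 for others, and +4.02 and −1.50 without KO replicate 3.

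**Figure D4:**
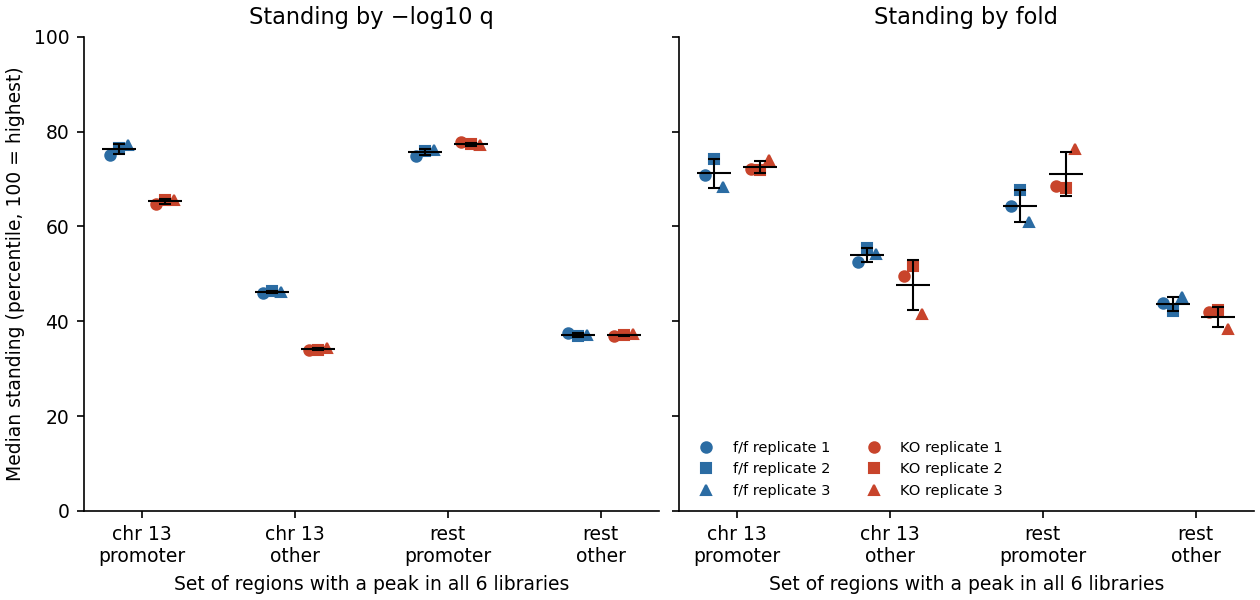
Median standing of shared regions in each library (points; blue f/f, red KO), by −log10 q (left) and by fold (right), for promoter and other regions of chromosome 13 and of the rest of the genome; horizontal lines are group means and error bars SD, n = 3. By −log10 q both sets of chromosome 13 shifted down, by −11.0 and −12.0 points, while those of the rest stayed within 1.74 points.

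Regional losses on other chromosomes were deeper over a shorter stretch. From 20 to 40 Mb of chromosome 16, 343 shared regions changed by −28.5 points by −log10 q, and from 90 to 105 Mb of chromosome 4, 54 shared regions by −40.1 points. Both segments were also chosen by the contrast of f/f with KO, so these differences are given without a test. On chromosome 13 the change ran from −19.7 to +5.51 over the 52 steps with 5 or more shared regions, and it was negative in 50 of them. The step with the rise of 5.51, from 104 to 106 Mb, held Adamts6 and Cenpk.

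The regions that moved farthest against the rest were mostly outside promoters. The largest fall, at chr13:38785430-38787157 in a stretch 74573 bp from the nearest gene, Gm46392, went from standings of 68.3, 71.7 and 69.6 in f/f to 22.1, 15.2 and 16.8 in KO. A region inside Fgd3, an exchange factor for Cdc42 (chr13:49316375-49317254), fell from 63.6, 54.5 and 60.9 to 8.61, 13.9 and 12.5. The other 3 of the 5 largest falls lay 25035 bp from Fam50b, inside Plpp1, a lipid phosphatase, and inside Cdkal1, with changes of −42.8, −40.5 and −40.2 points. The largest rise was next to Adamts6, 2616 bp beyond its span (chr13:104499311-104500105), from 10.5, 9.33 and 12.1 to 52.4, 63.9 and 58.2. Its fold as deposited was 7.76, 5.71 and 8.91 in f/f and 16.4, 18.0 and 8.34 in KO, KO replicate 3 lying below f/f replicate 3. Its standing by fold rose without overlap, from 27.7, 22.3 and 41.4 to 88.3, 94.6 and 74.4. The promoter of Ranbp9, a scaffold protein (chr13:43479995-43481972), rose from 13.5, 21.8 and 12.0 to 52.9, 50.1 and 40.6. The promoter of Irx2 was also among the 5 largest rises, with a region inside Bicd2 and one near the non-coding RNA gene Gm33447.

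Genes of matrix and adhesion showed single lost regions beside others that stayed. Of 15 listed genes, 14 had a region within 3 kb of their span and 5 had an f/f-only region: Ogn, Adamts16, Edil3, Adamts6 and Itga2. Of their 52 f/f regions 6 were f/f-only (11.5%, against 12.9% over the chromosome). Of their 24 shared regions, 8 stood lower in KO (33.3%, against 53.7% over the chromosome) and 6 higher (against 6.88% over the chromosome). Osteoglycin (Ogn), a small leucine-rich proteoglycan of bone, had 2 regions with a peak in each f/f library and 1, 1 and 0 in KO, and the lost one, at chr13:49623906-49624514, had −log10 q of 15.6, 7.49 and 43.4; it lies also within Cenpp. The promoter of its neighbour osteomodulin (Omd), which binds hydroxyapatite, kept a peak but fell from standings of 25.1, 44.0 and 34.2 to 13.3, 17.8 and 2.54. The integrin subunit genes Itga2 and Itga1, whose products bind collagen, lie side by side. Itga2 had 3, 4 and 4 regions in f/f and 1, 1 and 1 in KO, with an f/f-only region on each side of the gene, and its promoter stood at 30.4, 38.2 and 33.0 and at 39.7, 36.4 and 31.7, with overlap of the groups. The Itga1 promoter stood at 64.1, 78.1 and 75.6 in f/f and lower, at 56.6, 57.8 and 58.8, in KO. Versican (Vcan), a large matrix proteoglycan, had 2, 4 and 3 regions in f/f and 4, 3 and 2 in KO and no f/f-only region.

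Skeletal and craniofacial transcription factor genes held promoters of both directions. Of 20 listed genes, 19 had regions. Of their 27 shared regions 10 stood higher in KO and 5 lower (18.5%), with a median change of +1.74 points by −log10 q. Of all shared regions, 6.88% stood higher and 53.7% lower on chromosome 13, and 21.1% and 20.9% over the genome. Among 13 shared promoter regions of these genes, 6 stood higher in every KO library than in every f/f library, 3 lower and 4 neither. Over all shared promoter regions of chromosome 13, 6.58% stood higher and 62.1% lower, compared with 25.5% and 13.4% on the rest of the genome. The 6 that stood higher were the promoters of Irx2, Nfil3, Id4, Gli3, Hivep1 and Foxf2. That of Foxf2 did so narrowly, at 25.9, 28.7 and 22.3 in f/f and 29.5, 29.4 and 44.7 in KO. Its change of 8.93 points was 3.85 without KO replicate 3. Over all listed genes, 7 of 53 shared promoter regions stood higher and 22 lower, and the seventh was that of Pik3r1, a regulatory subunit of PI3-kinase.

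The promoter of Irx2, an Iroquois homeobox factor (chr13:72627911-72629003), stood at 25.0, 29.3 and 15.5 in f/f and 62.8, 57.6 and 53.5 in KO. All 3 KO values were more than 20 points above the highest f/f value, and by fold the standings were 50.9, 58.2 and 42.3 against 77.4, 64.1 and 64.0. The promoter of Id4, an inhibitor of basic helix-loop-helix factors (chr13:48260595-48262318), stood at 72.8, 66.0 and 65.8 in f/f and at 85.0, 81.7 and 91.1 in KO. That of Gli3, an effector of hedgehog signalling (chr13:15462489-15464756), stood at 59.9, 58.2 and 58.4 and at 72.4, 73.4 and 80.9. For both, the groups did not overlap by fold either, with changes of 36.9 points for Id4 and 30.4 for Gli3, or 33.0 and 16.9 without KO replicate 3. Their upstream sequences, printed above, are rich in CpG and hold GC boxes. This is not particular to them, since 57.7% of the chromosome 13 promoters covered by a shared region hold a GC box. The f/f-only promoter of Sv2c also holds GC boxes and 26 CpG. Nfil3, a basic leucine zipper repressor, rose from 34.1, 36.6 and 22.2 to 47.5, 50.2 and 57.3.

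Not all of these factors rose. Gli3 had 2 f/f-only regions inside its span, at chr13:15585763-15586222 and chr13:15715045-15715400, and its libraries had 9, 7 and 10 regions in f/f and 6, 6 and 1 in KO. Rreb1 and Jarid2 had 1 f/f-only region each. Of the 52 f/f regions of the listed factor genes, 4 were f/f-only (7.69%, against 12.9% over the chromosome). By −log10 q the Msx2 promoter stood at 57.8, 58.0 and 56.5 in f/f and lower, at 42.4, 48.2 and 55.0, in KO. Those of Foxc1 and Sox4 were lower as well, by −9.33 and −10.6 points. By fold the changes of Msx2, Foxc1 and Sox4 were +0.612, +6.93 and +9.21 points. Without KO replicate 3 they were −6.82, −0.859 and −0.655. The promoter of Isl1, a LIM homeobox factor of hindlimb and motor neurons, had −log10 q of 56.7, 49.2 and 107 in f/f and of 12.4 and 17.9 in KO replicates 1 and 2, with no peak in KO replicate 3. The promoter of Barx1, a homeobox factor of jaw and tooth, had 5.82, 8.90 and 17.8 in f/f and 25.3 and 45.3 in KO replicates 1 and 2, again with none in KO replicate 3. These −log10 q values are as deposited and depend on the depth of each library.

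**Figure D5:**
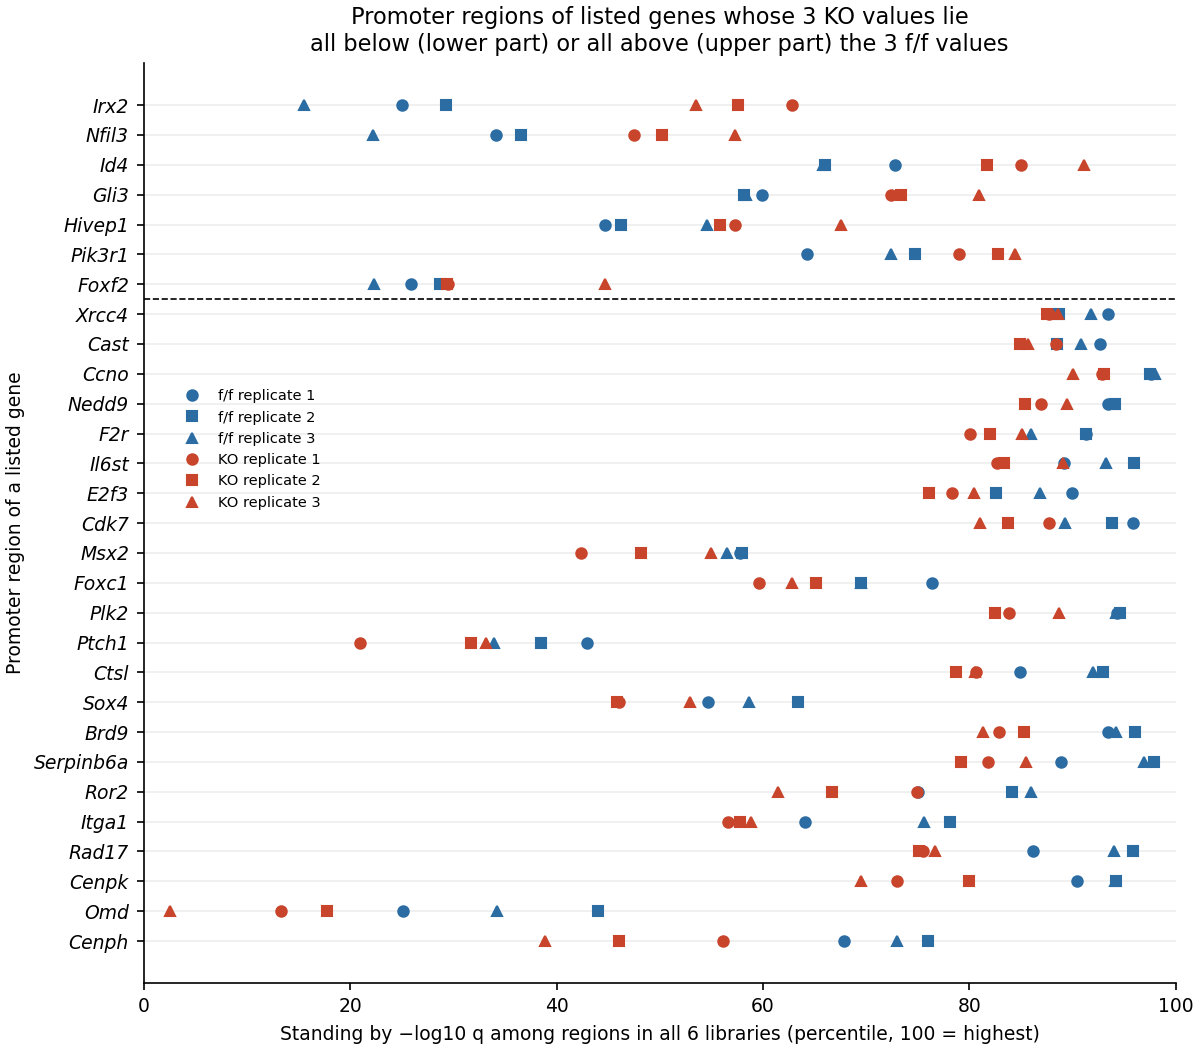
Standing by −log10 q (horizontal axis, percentile among shared regions) in each library (blue f/f, red KO) for the promoter regions of listed genes whose 3 KO values lie all above (7, upper part) or all below (22, lower part) the 3 f/f values; Brd9 and Trip13 share 1 region, shown as Brd9. Irx2, at 15.5 to 29.3 in f/f and 53.5 to 62.8 in KO, shows the widest gap of the upper part.

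Some signalling genes had an f/f-only region. Among genes with a region these were 3 of 9 ligand genes and 3 of 15 receptor and transducer genes, beside 19.4% of the protein-coding genes of chromosome 13. Of the f/f regions of ligand genes 3 of 26 were f/f-only (11.5%), and of those of receptor and transducer genes 7 of 74 (9.46%), against 12.9% over the chromosome. Among 10 genes listed as ligands, Bmp6, Fst and Fgf10 had 1 f/f-only region each. The Fgf10 region had −log10 q of only 2.69, 3.91 and 7.51. When peaks under a −log10 q of 5 were dropped, Fgf10 had no f/f-only region. Follistatin (Fst), which binds activins, had 2 regions in each f/f library and 1 in each KO library, the lost one inside the gene at chr13:114457257-114457612 with −log10 q of 9.21, 13.7 and 16.7. Bmp6, a bone morphogenetic protein, had 7, 11 and 9 regions in f/f and 6, 7 and 1 in KO, and its f/f-only region, at chr13:38419514-38420171, had 10.2, 17.9 and 34.3. Of the shared ligand promoters, 1 of 5 stood lower and 0 higher; this was the promoter of Serpinb6a, a protease inhibitor that the list also holds. Among 16 genes of receptors and signal transducers, Pde4d, Syk and Map3k1 had f/f-only regions, and 16 of their 32 shared regions stood lower (50.0%, against 53.7% over the chromosome) and 3 higher. Pde4d, a cAMP phosphodiesterase gene that spans chr13:108654177-109955969, had 33, 33 and 43 regions in f/f and 21, 26 and 9 in KO, with 5 f/f-only regions. The promoters of Ror2, a receptor of Wnt5a, and Il6st, the shared receptor of interleukin-6 cytokines, stood lower in KO by −log10 q, by −14.0 and −7.74 points. By fold their changes were −0.795 and +7.52 points, or +3.44 and +1.64 without KO replicate 3.

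At Cast, calpastatin, 3 regions had a peak in every f/f library and 2 of them in every KO library. The f/f-only region, 425 bp inside the gene at chr13:74772228-74772652, had −log10 q of 24.7, 20.3 and 22.8 and a fold of 4.50, 3.64 and 3.26. It lies close to a promoter region inside the gene span, at chr13:74770308-74771146, which stood at 92.6, 88.5 and 90.8 in f/f and 88.4, 84.9 and 85.7 in KO, lower without overlap but by −4.33 points. By fold it stood at 84.9, 87.0 and 80.1 in f/f and at 95.7, 91.4 and 98.5 in KO, higher without overlap, by 11.2 points. The promoter at the end of the span, at chr13:74807140-74808966, stood at 71.6, 79.7 and 75.2 and at 55.8, 61.0 and 76.2, with KO replicate 3 among the f/f values. Cathepsin L (Ctsl), a lysosomal protease, had 3 regions in each f/f library and 1, 2 and 1 in KO. Its promoter stood lower by −log10 q, by −9.98 points, whereas by fold it changed by +5.24 points, or +3.09 without KO replicate 3.

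Genes of the cell cycle, replication and repair kept nearly all regions, 28 of 29 f/f regions having a peak in some KO library. Their f/f-only share of 3.45% stands beside 12.9% over the chromosome and 2.51% of its promoter f/f regions. Promoters were 14 of their 36 regions. Each of the 20 listed genes had a region, 1 had an f/f-only region (Cdk7, the kinase of CAK and TFIIH), and 12 of 22 shared regions stood lower (54.5%, near the 53.7% of the chromosome) and 0 higher. Their median change was −9.06 points by −log10 q and +0.702 by fold. The promoter of the centromere gene Cenph (chr13:100775167-100776525) fell from 67.8, 76.0 and 73.0 in f/f to 56.1, 46.1 and 38.9 in KO. Cenpk and Rad17, the latter a checkpoint clamp loader, fell by −18.7 and −16.2 points. Ccnb1, cyclin B1, stood at 87.3, 81.0 and 80.7 and at 81.1, 81.4 and 80.5, with overlap.

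The gene clusters differed by whether they were open at all. Of 55 histone genes 53 had a region, 38 regions in all since neighbours share them. Of 36 f/f regions 1 was f/f-only, near H2bc6 (2.78%, against 12.9% over the chromosome and 2.51% of its promoter f/f regions). Of 31 shared regions, 25 (80.6%) stood lower by −log10 q and 0 higher. This share stands beside 53.7% of the shared regions of chromosome 13, 62.1% of its shared promoter regions and 20.9% over the genome. The median change of the histone regions was −16.7 points by −log10 q and +12.4 by fold, or −20.1 and +3.90 without KO replicate 3. Zinc finger genes had a region at 36 of 39, and likewise 25 of 31 (80.6%) stood lower and 0 higher, with medians of −14.4 by −log10 q and −10.7 by fold, or −13.4 and −2.16 without KO replicate 3. Serpin B genes had a region at 10 of 17, with 1 f/f-only region near Serpinb6c (5.00% of their 20 f/f regions). Of their 8 shared regions 4 stood lower (50.0%), with medians of −6.97 by −log10 q and −1.50 by fold, the latter at +0.435 without KO replicate 3.

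Over all 829 protein-coding genes of chromosome 13, 633 had a region within 3 kb and 123 of these (19.4%) had an f/f-only region. The numbers were highest at long genes: Gmds, an enzyme of GDP-fucose synthesis, had 6, Pde4d 5, and Arl15 and Cdkal1 4 each. At Gmds the libraries had 16, 14 and 17 regions in f/f and 7, 10 and 2 in KO. At Dusp22, a short gene for a dual-specificity phosphatase, 3 of 4 regions were f/f-only, with 4 regions in each f/f library and 1 in each KO library. The study listed genes with less accessible chromatin in these samples and lower expression in RNA-seq of the earlier work of the group, and 6 of them lie on chromosome 13; as the list was chosen in part on these samples, it is not independent evidence of direction. Slc35d2, a nucleotide sugar transporter gene, Sv2c, a synaptic vesicle protein gene, Tmem171 and Fst had f/f-only regions, and Vcan and 2210016F16Rik had none. Sv2c had 5, 5 and 6 regions in f/f and 3, 3 and 2 in KO, with 2 f/f-only regions, the promoter among them at −log10 q of 10.0, 9.74 and 20.3. Tmem171 had 1, 2 and 2 regions in f/f and 0 in each KO library.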

How the data were processed

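The 6 ATAC-seq libraries fell by their labels into OB Fam20c KO (3) and OB Fam20c f/f (3). The authors used Trimmomatic for trimming, BWA for alignment to mm10 and, library by library, MACS2 2.1.2 with a q-value threshold of 0.05 for peak calling. In the deposited lists stand each peak's position, a score (a scaled −log10 q for browsers, not used), the fold over the local background at the summit as a ratio, the −log10 p and −log10 q of the peak, and the summit offset, all as the authors' values. No counts or depths are in the lists, so no count test could be made.

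Peaks sharing 1 bp were merged into regions, and a region took its highest peak in each library. Values were used as percentile ranks within a library, over shared regions (those called in all 6 libraries) unless whole lists are named. Promoters were the RefSeq windows of GRCm38.p6, from 250 bp before to 50 bp after each start; the design had planned gene ends, for which these start windows were used. GRCm38.p6 has the coordinates of mm10. Genes were spans extended by 3 kb. Named were the 4 steps of highest and the 4 of lowest f/f-only share, the 5 highest f/f-only regions, all KO-only regions, the 5 largest falls and rises, list members with group-specific regions, and the promoters of listed genes; Gmds, Arl15, Cdkal1 and Dusp22, and genes within steps, were named after their values were seen. Members and lists were chosen with earlier results of these data known. The split by promoter, by 60 Mb and by f/f standing, and the fold at equal −log10 q (in 50 bins), were made on the same lists. No test of f/f against KO was made, since that contrast chose the chromosome. The procedure was checked on simulated lists. The alternatives are given with the limits in the closing section. The calculations used matplotlib 3.10.9, scipy 1.17.1, pandas 2.3.3, numpy 2.4.6 and Python 3.11.15.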

Additional observations from a re-analysis of the deposited data

How the results depend on the processing

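No paired analysis was possible because no result comes from a test, and the replicate numbers only name libraries. The changes of median standing over chromosome 13 by −log10 q and by fold kept their direction under each alternative run, and the sizes moved as follows; the cause was not tested. With the same number of peaks from each list, chromosome 13 had 1664 regions, 143 f/f-only and 16 KO-only. The f/f-only share was 11.8%, against 4.14% over the genome. There were 69 protein-coding genes with an f/f-only region, and 93.6% of steps lay above the genome share. The standing by −log10 q changed by −12.7 in all, −13.8 at promoters and −13.3 elsewhere. By fold 112 shared regions lay lower in KO and 118 higher, in place of 152 and 130. These were 13.7% and 14.4%, near the 12.4% and 15.7% over the genome. Under that setting 19 of the 23 named genes with f/f-only regions had none, Cast, Ogn, Bmp6, Fst and Sv2c among them. When peaks under a −log10 q of 5 were dropped, the changes were −12.8 and −12.5 at promoters and elsewhere, with 94.3% of steps above the genome share. Edil3, Fgf10 and Syk then had no f/f-only region. With windows of 250 bp to each side of the summits there were 2 KO-only regions and a change of −11.5 outside promoters. With a peak in at least 2 of 3 libraries, 551 regions were f/f-only and 64 KO-only. In steps of 1 Mb, all KO libraries had fewer regions in 67.1%, and in steps of 5 Mb, 95.8% lay above the genome share. With ranks within whole lists, the change was −13 by −log10 q, −16.6 outside promoters and −7.24 by fold, with 63.1% and 18.3% of shared regions lower. With the mean of the peaks of a region, it was −9.72 at promoters and −12.5 elsewhere. Where a count or share of this paragraph has no genome value beside it, that value was not computed under the setting.

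Leaving out 1 library at a time gave 1 to 64 KO-only regions, the 64 without KO replicate 3, 2 without f/f replicate 1 and 3 without f/f replicate 2 or 3. The f/f-only share was 13% to 18.5%, the regions lower by −log10 q 55.9% to 59.1% and by fold 18.3% to 30.7%. With 1 library fewer, these calls are met more easily. Without KO replicate 3 the genome shares were 6.30%, 26.3% and 20.2%, against 6.25%, 20.9% and 13.9% with all libraries. With another library left out, the genome shares were not computed. On chromosome 13 the change of standing was −11.5 to −7.44 at promoters, −12.2 to −10.4 elsewhere and −6.94 to −1.99 by fold, with the values without KO replicate 3 at −7.44, −10.4 and −6.94. Over the same 974 shared regions without KO replicate 3, an alternative chosen after seeing the data, the changes by fold were −2.65 in all, +0.695 at promoters, −3.43 elsewhere, −1.14 in the first 60 Mb and −3.30 beyond; these splits by fold were run under no other alternative. A span extended by 1 kb left Itga2, Slc35d2 and Tmem171 without an f/f-only region. Peak lists give neither depth nor counts, so a missing peak means only that none passed the threshold.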
